A study of Mus musculus with 21 samples.

Results

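The genes described here encode the CD3 chains of the T cell receptor and the proteins that start its signal at the membrane. They were taken by name: Cd3d, Cd3e, Cd3g and Cd247 for the receptor's CD3 and zeta chains, Lck and Zap70 for its kinases, Lat and Sit1 for adaptors, and Cd2 for an adhesion and costimulatory receptor. Of the 9 genes, 8 were measured, each by 1 probe set, among 22206 probe sets that name 19505 genes, and Lck is not analysed here. The samples were 21 tumours of Hepa1-6, a mouse hepatoma line, grown under the skin of immunocompetent female C57BL/6J mice that were 5 to 6 weeks old when 5000000 cells were injected. Mice were randomized at a tumour volume of 200 mm3 to vehicle with polyclonal IgG BE0091 (placebo, 6 mice), lenvatinib by gavage at 10 mg/kg daily (5 mice), the anti-PD1 antibody clone J43 into the peritoneum at 10 mg/kg every 3 days for 5 doses (5 mice), or both agents (combination, 5 mice). Tumours were collected on day 13, with the final lenvatinib gavage 2 h and the final antibody injection 1 day earlier where these were given, and RNA from 30 mg of each was hybridized to a Clariom S mouse array. All arms share 1 tumour line, 1 mouse strain and the subcutaneous site, so no value here comes from a tumour growing in liver.

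The antigen-binding chains of the T cell receptor have almost no cytoplasmic part, and the CD3 delta, epsilon and gamma chains and the zeta chain carry the tyrosine motifs that signal for them. LCK phosphorylates these motifs, ZAP70 docks on them and phosphorylates the scaffold LAT, and LAT gathers the enzymes that raise calcium and activate RAS. PD-1, the target of the antibody, recruits a tyrosine phosphatase that dampens this proximal signal, while lenvatinib blocks receptor kinases for VEGF, FGF and related ligands. The message of most of these genes is largely restricted to T cells, although other lymphocytes carry some of them. Natural killer (NK) cells, for example, carry the zeta chain, ZAP70, LAT and CD2. In a piece of whole tumour, fewer T cells and less message per T cell cannot be told apart.

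The Cd3g, Cd3d and Cd3e genes stand next to each other on chromosome 9, with Ube4a and Mpzl2 as the flanking genes, while Cd247 is on chromosome 1. Their promoter windows are shown because these 4 genes encode the signalling chains of 1 receptor and 3 of them share a locus, so that a reader can see what their start sites share. The windows are from RefSeq on GRCm38.p6, from 250 bases before the start site to 50 bases from it on, 5′ to 3′ on the gene's strand. Capitals mark the ETS core AGGAAG and the E box CACCTG on either strand, so that CTTCCT and CAGGTG are the same motifs read on the other strand, and no match of one overlaps a match of the other in these windows.
Cd3g, chr9:44980382-44980681, minus strand: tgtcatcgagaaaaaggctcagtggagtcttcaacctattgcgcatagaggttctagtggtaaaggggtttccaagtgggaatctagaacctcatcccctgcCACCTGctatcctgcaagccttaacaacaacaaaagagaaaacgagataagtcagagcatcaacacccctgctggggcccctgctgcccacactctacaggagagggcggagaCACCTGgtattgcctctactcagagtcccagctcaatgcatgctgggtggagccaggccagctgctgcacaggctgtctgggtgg
Cd3d, chr9:44981536-44981835, plus strand: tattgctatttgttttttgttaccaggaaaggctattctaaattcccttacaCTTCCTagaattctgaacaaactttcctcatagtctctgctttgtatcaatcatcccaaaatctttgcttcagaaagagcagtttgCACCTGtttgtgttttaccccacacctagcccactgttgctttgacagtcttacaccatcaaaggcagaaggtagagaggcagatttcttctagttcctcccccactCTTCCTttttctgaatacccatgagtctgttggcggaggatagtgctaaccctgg
Cd3e, chr9:45009562-45009861, minus strand: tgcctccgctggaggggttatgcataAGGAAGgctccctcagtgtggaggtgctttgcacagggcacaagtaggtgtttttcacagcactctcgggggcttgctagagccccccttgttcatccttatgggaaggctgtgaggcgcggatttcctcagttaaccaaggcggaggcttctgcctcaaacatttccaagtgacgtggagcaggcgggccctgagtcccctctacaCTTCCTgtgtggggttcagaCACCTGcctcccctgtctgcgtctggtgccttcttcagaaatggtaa
Cd247, chr1:165788431-165788730, plus strand: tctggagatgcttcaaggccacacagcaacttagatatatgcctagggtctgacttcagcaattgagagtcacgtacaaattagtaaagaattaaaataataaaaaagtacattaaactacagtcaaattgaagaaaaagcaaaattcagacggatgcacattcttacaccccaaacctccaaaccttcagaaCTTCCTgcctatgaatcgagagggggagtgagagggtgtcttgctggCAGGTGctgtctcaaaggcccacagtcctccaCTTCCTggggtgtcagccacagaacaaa
The table held 11 windows for 8 of the 9 genes, and Cd2 was not matched. An E box CACCTG was present in all 4 windows printed and in 9 of the 11, against 20.2% of 32851 mouse promoter windows of the same length. The ETS core was present in 3 of the 4 windows printed, Cd3g being the exception, and in 9 of the 11, against 35.4% of all windows. The RUNX core TGTGGT was found in 3 of the 11 windows (16.8% of all windows), the TCF and LEF core CTTTGA in 4 (16.0%) and the GATA core AGATAA in 1, that of Cd3g (11.2%). These are matches of letters and describe the sequences only, since no binding was measured.

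Array medians over all probe sets lay between 5.32 and 5.49 log2 units, and precision is limited by how many arrays each arm has. On 6 arrays (mice 4 and 6 of placebo, 1 and 2 of lenvatinib, 1 of anti-PD1 and 1 of the combination) the hybridization controls were bright, with means of at least 11.33 against at most 10.91 on the other 15, and the interquartile range of the signals was 2.41 to 2.82 against 3.00 to 3.25. Surrounding tissue differed between tumour pieces: the skeletal muscle score was 4.73 in combination mouse 2, 4.16 and 4.00 in mice 1 and 5 of placebo, 3.98 in mouse 4 of lenvatinib, 3.18 in mouse 2 of anti-PD1 and at most 1.37 in the other 16 tumours, where a score is the mean of a list's genes after each was centred over the 21 tumours. The background on these arrays was set by 5222 negative-control rows, with a median of 4.08 and a 95th percentile of 7.57. Cd3g exceeded its array's 95th percentile in 19 of 21 tumours, Cd3d in 17, Lat in 10, Cd3e in 9, Zap70 and Cd2 in 4 each, Cd247 in 2 and Sit1 in 1. All but Cd3d and Sit1 exceeded the negative-control median in every tumour, and these 2 did so in 20 and 19 tumours. Cd3g was above that percentile in tumours of every arm, while nearly all Sit1 and Cd247 values lay inside the spread of the negative controls.

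In every one of the 8 genes the arm means stood in the same order, with the combination highest, then placebo, lenvatinib and anti-PD1. Cd3d encodes the delta chain, which pairs with epsilon in the receptor. In placebo tumours its log2 signal ran from 8.30 to 9.10 with a median of 8.65. The 5 lenvatinib tumours read 7.98, 8.30, 7.31, 7.62 and 9.03, in the order of mice 1 to 5. The anti-PD1 tumours read 7.33, 4.02, 7.82, 8.14 and 7.14, all below the lowest placebo tumour. The combination tumours read 7.73, 9.78, 8.87, 10.11 and 9.80, of which 3 exceeded the highest placebo tumour and mouse 1 lay below the lowest.

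Cd3g encodes the gamma chain, which pairs with another epsilon chain and helps to control the removal of the receptor from the surface. Placebo tumours held Cd3g at 9.03 to 9.60, median 9.16. The lenvatinib values were 8.07, 8.80, 7.68, 8.06 and 9.60, and the anti-PD1 values were 7.83, 4.65, 7.86, 8.56 and 7.27. The combination values were 7.72, 9.88, 9.67, 10.06 and 9.99, so that 4 tumours were above every placebo tumour and mouse 1 below every one. Anti-PD1 mouse 2 was the lowest of the 21 tumours for Cd3d, Cd3e and Cd3g alike, and its Cd3d signal of 4.02 was below the negative-control median of its own array, 4.29.

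Cd3e encodes the epsilon chain, present in both CD3 pairs. It ranged from 6.89 to 8.38 in placebo, median 7.71. Lenvatinib tumours read 5.44, 6.55, 6.74, 7.26 and 8.56, with 3 tumours below and 1 above the whole placebo range. Anti-PD1 tumours read 6.04, 5.25, 6.59, 7.43 and 6.78, with mouse 4 inside the placebo range and 4 below it. Combination tumours read 6.87, 8.34, 8.25, 9.62 and 8.77. Cd247 encodes the zeta chain, which carries more signalling motifs than the other chains. It varied least of the 8 genes, over 2.35 log2 units across all tumours, with placebo at 6.06 to 6.51 (median 6.23). Lenvatinib tumours held Cd247 at 5.55, 5.97, 5.78, 6.28 and 6.64, and anti-PD1 tumours at 6.17, 5.53, 5.94, 6.11 and 5.70. The combination tumours, at 6.29, 6.83, 6.84, 7.88 and 7.42, all exceeded every anti-PD1 tumour, and 4 of them exceeded every placebo tumour.

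Zap70, the kinase recruited to the phosphorylated chains, lay between 6.22 and 7.66 in placebo, with a median of 6.72. Lenvatinib tumours read 5.83, 5.96, 6.18, 6.36 and 7.40. Anti-PD1 tumours read 6.28, 4.89, 6.05, 6.33 and 6.17, and combination tumours read 5.98, 7.66, 7.58, 8.45 and 7.58. The 4 combination tumours other than mouse 1 were above every lenvatinib and every anti-PD1 tumour for Zap70. Lat, the scaffold that ZAP70 phosphorylates, was held within a narrow band in placebo, 7.48 to 7.99 with a median of 7.67. Lenvatinib tumours stood at 7.43, 6.74, 7.35, 7.13 and 8.09 for Lat. All anti-PD1 tumours stood below that band, at 7.14, 5.86, 7.03, 7.33 and 6.52. Combination tumours stood at 7.38, 8.56, 8.30, 9.68 and 8.74, with 4 above the band and none as low as an anti-PD1 tumour.

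Sit1 encodes a transmembrane adaptor that binds a phosphatase and is known to restrain receptor signalling. Its placebo values ran from 4.87 to 6.62 (median 5.33), with the highest in mouse 6. Lenvatinib tumours read 5.27, 5.00, 4.44, 4.82 and 5.77, and anti-PD1 tumours read 5.23, 4.17, 4.51, 4.64 and 4.21. Combination tumours read 5.01, 6.60, 6.59, 7.74 and 6.94. Mice 2 to 5 stood above mouse 1, as for the CD3 chains, but only mice 4 and 5 exceeded every placebo tumour. Sit1 exceeded its array's 95th percentile of the negative controls in only 1 of 21 tumours. Cd2, which binds CD48 on neighbouring cells in the mouse and strengthens contact, ran from 6.63 to 7.53 in placebo, median 6.97. Lenvatinib tumours read 6.43, 6.08, 6.08, 6.13 and 7.30, and anti-PD1 tumours read 6.39, 5.73, 5.82, 6.67 and 5.67. Combination tumours read 6.70, 7.90, 7.73, 8.77 and 8.03, and all of them exceeded all anti-PD1 tumours.

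**Figure D1:**
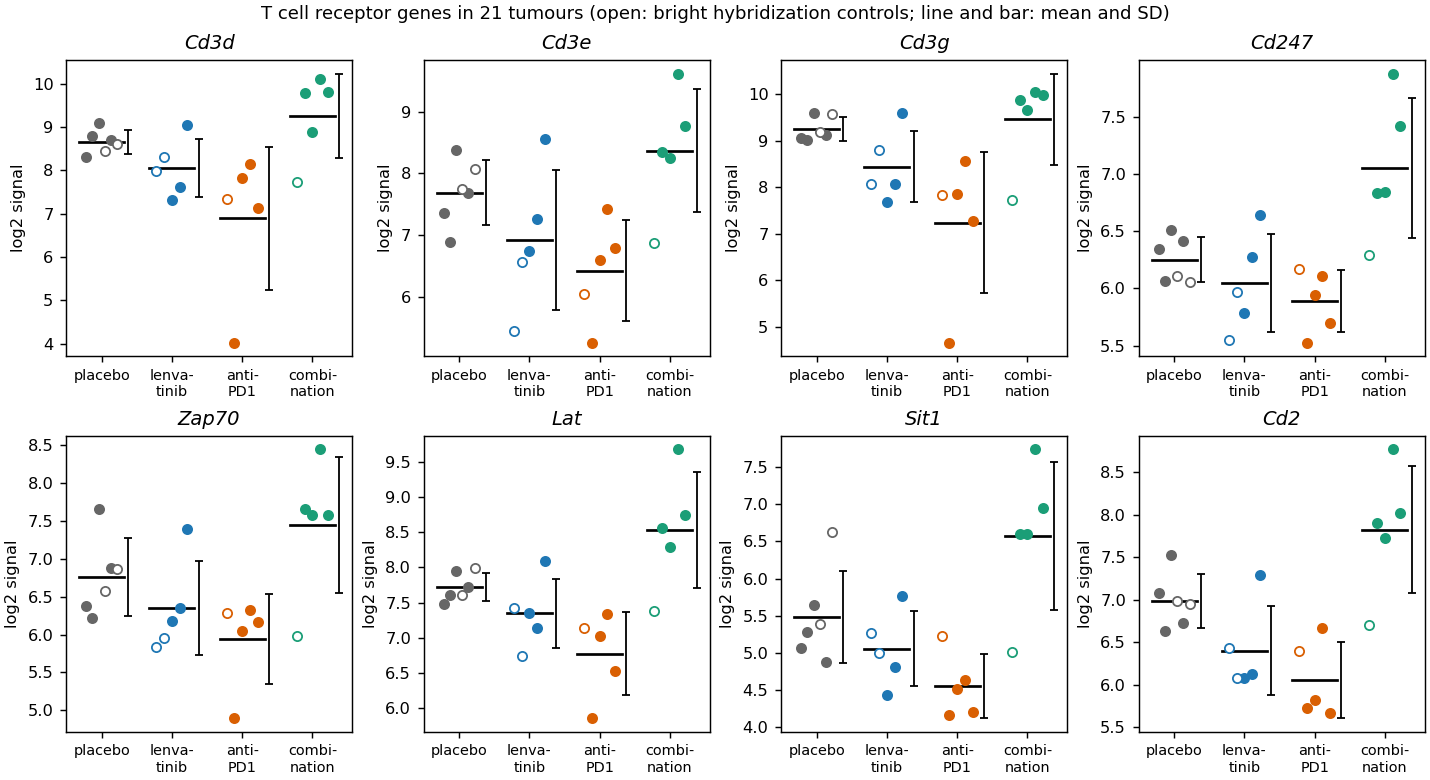
Log2 signal of the 8 measured T cell receptor genes in each of 21 tumours, by arm; points are tumours, open points are the 6 arrays with bright hybridization controls, lines are arm means and bars are ± 1 SD. In all 8 panels the arm means run combination, placebo, lenvatinib, anti-PD1 from high to low, and the lowest combination tumour, mouse 1, is the only combination array with bright controls.

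Under anti-PD1 alone, all 8 genes had lower means than under placebo, with a median difference of -0.94 on the log2 scale against -0.0020 over all probe sets, of which 49.6% stood above 0, and no gene passed the threshold. The Cd3g difference was -2.03 ± 0.54 (SE), a ratio of 0.245, and that of Cd3d was -1.76 ± 0.55, a ratio of 0.294. Lat differed by -0.95 ± 0.32, Cd3e by -1.27 ± 0.49, Cd2 by -0.93 ± 0.30, Sit1 by -0.93 ± 0.38, Zap70 by -0.82 ± 0.38 and Cd247 by -0.36 ± 0.24. In limma with Benjamini-Hochberg adjustment over 22206 probe sets, the adjusted p of the 8 genes ran from 0.82 to 1.00, and 0 probe sets (0%) passed 0.05. At an unadjusted p under 0.05, 7 of the 8 genes were lower, all but Cd247, where 2.68% of all probe sets were called lower. Cd3d, Cd3g and Lat did not overlap between the arms, against 0.374% of all probe sets in that direction, and the exact two-sided permutation p of each was 0.00216, the smallest this design allows; after adjustment over all probe sets it was 0.801. Without anti-PD1 mouse 2 the median difference was -0.84, the Cd3d difference -1.05 and the Cd3g difference -1.38, and 4 of 8 genes stayed at an unadjusted p under 0.05, with 2.52% of all probe sets. The median was -1.01 over the 15 arrays with dim hybridization controls and -0.72 over the 6 with bright ones (1 tumour against 2).

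Under lenvatinib alone the 8 genes also had lower means than under placebo, by 0.21 (Cd247) to 0.82 (Cd3g) log2 units, with a median difference of -0.50 against -0.0064 over all probe sets, of which 49.1% stood above 0. The adjusted p in limma ran from 0.693 to 0.872, with 0 of 8 genes and 0% of all probe sets past 0.05. At an unadjusted p under 0.05, 0 of 8 genes were lower, where 4.05% of all probe sets were, and 0 of 8 were free of overlap, against 0.302%. Over 19 alternative fits the count at an unadjusted p ran from 0 to 3. It was 3 when only the 2 arms compared were fitted (5.31% of all probe sets) and 2 without lenvatinib mouse 5 (5.36%). In the lenvatinib arm 4 of 5 tumours lay below every placebo tumour for Cd3g, Lat and Cd2, and mouse 5 lay above the placebo mean for all 8 genes. Without lenvatinib mouse 5 the median difference was -0.74, while it was -0.19 over the 15 arrays with dim controls and -0.77 over the 6 with bright controls (2 tumours against 2). Between the single agents, lenvatinib stood above anti-PD1 in all 8 genes by a median of 0.50 (51.5% of all probe sets stood above 0 in this pair), with adjusted p in limma from 0.955 to 0.979 (0% of probe sets passed). Only Cd3g, at 1.21 ± 0.56, had an unadjusted p under 0.05 in that pair, against 1.55% of all probe sets higher. Its difference was 0.56 without anti-PD1 mouse 2 (Cd3d went from 1.16 to 0.44). The count was 0 of 8 without anti-PD1 mouse 2 (0.59% of all probe sets) or 5 (2.63%). It was also 0 of 8 without lenvatinib mouse 2 (1.11%) or 5 (1.98%). It was 2 of 8 without lenvatinib mouse 3 (1.94%), anti-PD1 mouse 3 (2.65%) or anti-PD1 mouse 4 (1.88%). In this pair 0 of 8 genes were free of overlap, against 0.203%. Without lenvatinib mouse 5 the median was 0.23, and it was 0.81 over the arrays with dim controls and -0.075 over those with bright ones (2 tumours against 1).

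In the combination arm all 8 genes had higher means than in placebo, by 0.20 ± 0.54 for Cd3g to 1.10 ± 0.38 for Sit1, with a median of 0.74 against -0.0036 over all probe sets, of which 49.3% stood above 0. The other differences were 0.84 ± 0.30 for Cd2, 0.81 ± 0.32 for Lat, 0.80 ± 0.24 for Cd247, 0.69 ± 0.38 for Zap70, 0.68 ± 0.49 for Cd3e and 0.61 ± 0.55 for Cd3d. The adjusted p in limma was 1.00 for each gene, and 0% of probe sets passed. Cd247, Lat, Sit1 and Cd2 had an unadjusted p under 0.05, 4 of 8 genes where 1.01% of all probe sets were called higher, and 0 of 8 were free of overlap, against 0.0766%. This count was 6 of 8 without combination mouse 1 (2.76% of all probe sets) and 2 of 8 without combination mouse 4 (0.572%). Without combination mice 3 and 4 it was 1 of 8 (0.928%). Mice 3 and 4 of the combination had the highest B cell scores of the 21 tumours, 1.54 and 3.48. The part of this in the values was not tested. The direction of the median differed with the array group: it was 1.07 over the 15 arrays with dim controls (4 tumours against 4) and -0.77 over the 6 with bright controls (1 tumour, combination mouse 1, against 2). Without combination mice 3 and 4 the Cd3g difference was -0.069.

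The largest differences between arms were those of the combination against anti-PD1, in which all 8 genes stood higher, by 1.16 to 2.37 log2 units and a median of 1.86, against -0.011 over all probe sets, of which 48.1% stood above 0. Cd3d differed by 2.37 ± 0.58, a ratio of 5.17, Cd3g by 2.23 ± 0.56, Sit1 by 2.03 ± 0.40, Cd3e by 1.95 ± 0.51, Cd2 by 1.77 ± 0.32, a ratio of 3.41, Lat by 1.76 ± 0.34, Zap70 by 1.51 ± 0.39 and Cd247 by 1.16 ± 0.25. None of these passed: the adjusted p in limma ran from 0.124 to 0.157, and 0% of all probe sets passed 0.05. By unadjusted p in limma, Cd2 ranked 1 of 22206 probe sets, Lat 4 and Sit1 7, and 8 of 8 genes were under 0.05 where 4.85% of all probe sets were called higher. Cd247, Lat and Cd2 did not overlap between the arms, against 0.527% of all probe sets; their exact permutation p was 0.00794, the smallest that 5 against 5 tumours allow, and 0.731 after adjustment. Array weights, set by how closely each array followed its arm mean, made all 8 genes pass in limma (smallest adjusted p 0.00682, 2.27% of all probe sets called). They ran from 0.18 (anti-PD1 mouse 1) to 3.63 (lenvatinib mouse 4), with combination mouse 1 at 0.37. Such weights do not separate array quality from differences between tumours of 1 arm. Leaving out the 6 arrays with bright controls made 6 pass, all but Cd3d and Cd3g (1.05% of all probe sets). Leaving out combination mouse 1 made all 8 pass (1.52%). Leaving out anti-PD1 mouse 4, the highest of its arm for 6 of 8 genes, made Lat, Sit1 and Cd2 pass (0.392%). Without anti-PD1 mouse 2, the tumour with the lowest CD3 signals, the Cd3d difference was 1.65 and that of Cd3g 1.58, with 8 of 8 genes at an unadjusted p under 0.05 (4.37% of all probe sets) and an adjusted p of 0.426 for both genes in limma. Without combination mice 3 and 4 the count was also 8 of 8 (3.88%). The median was 2.18 over the 15 arrays with dim controls and 0.18 over the bright ones, where combination mouse 1 met anti-PD1 mouse 1 only.

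The combination also stood above lenvatinib alone in all 8 genes, by a median of 1.20 against -0.0076 over all probe sets, of which 48.8% stood above 0. Sit1 differed by 1.52 ± 0.40, Cd3e by 1.46 ± 0.51, Cd2 by 1.42 ± 0.32, Cd3d by 1.21 ± 0.58, Lat by 1.18 ± 0.34, Zap70 by 1.10 ± 0.39, Cd3g by 1.02 ± 0.56 and Cd247 by 1.00 ± 0.25. Adjusted p in limma was 0.78 to 0.799, and 0% of probe sets passed. At an unadjusted p under 0.05, 7 of 8 genes were higher, all but Cd3g, against 3.87% of all probe sets, with Cd2 ranking 2; no gene was free of overlap, against 0.405% of all probe sets. That count was 4 of 8 (2.43%) without combination mice 3 and 4. With array weights 7 genes passed the adjusted threshold, all but Cd3e, where 3.18% of all probe sets passed. The median was 1.37 over the 15 arrays and 0.19 over the 6.

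The interaction asks whether the combination differed from placebo by more than the sum of the single-agent differences on the log2 scale. It was above 0 in all 8 genes, from 1.37 ± 0.35 for Cd247 to 3.05 ± 0.77 for Cd3g, with a median of 2.40 against -0.010 over all probe sets, of which 48.9% stood above 0. Cd3d stood at 2.97 ± 0.80, Cd3e at 2.72 ± 0.71, Sit1 at 2.45 ± 0.55, Cd2 at 2.35 ± 0.44, Lat at 2.13 ± 0.46 and Zap70 at 1.92 ± 0.54. Adjusted p in limma ran from 0.151 to 0.205, with 0% of probe sets past 0.05. Cd2 again ranked 1 of all probe sets, and 8 of 8 genes had an unadjusted p under 0.05 where 5.7% of all probe sets did in that direction. All 8 passed with array weights (7.62% of all probe sets passed) and without combination mouse 1 (1.44%); Cd3e, Lat, Sit1 and Cd2 passed without lenvatinib mouse 5 (0.365%) and Cd2 alone without anti-PD1 mouse 4 (0.0315%). Without anti-PD1 mouse 2 the interaction was 2.26 for Cd3d and 2.40 for Cd3g, and no gene passed. The comparisons share arms, so their values for a gene are not independent of each other. Over the 4 arms at once, the moderated F test gave unadjusted p from 8.36e-05 for Cd2 to 0.00675 for Zap70, adjusted p from 0.556 to 0.643, and 0% of probe sets passed; 8 of 8 genes were under 0.05 unadjusted, where 5.69% of all probe sets were.

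**Figure D2:**
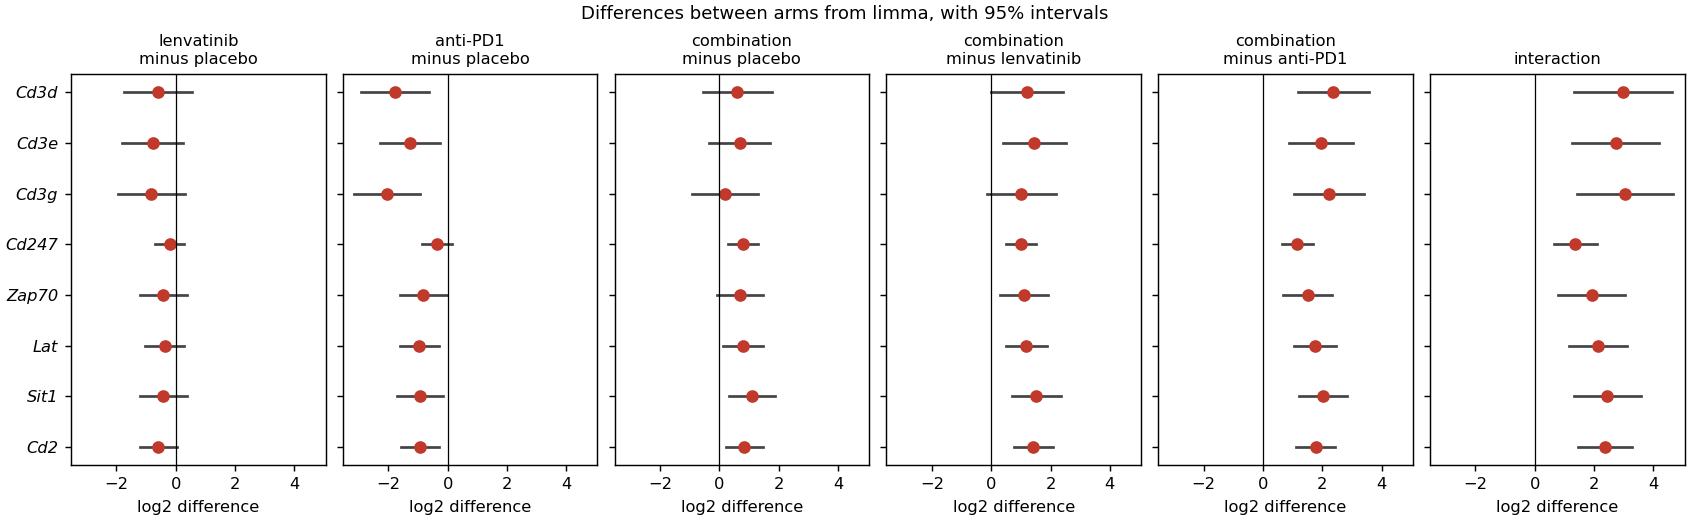
Log2 differences between arms for the 8 genes in 5 pairs of arms and in the interaction, from limma; points are differences and lines their 95% intervals, not adjusted for the number of probe sets. Every point lies left of 0 for the single agents against placebo and right of 0 elsewhere, with the widest distance from 0 in the combination against anti-PD1 (median 1.86) and in the interaction (median 2.40).

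Tumours of 1 arm also differed from each other. The arms held 45.3% (Zap70) to 66.1% (Cd2) of the variance of a gene over the tumours, and the rest lay between tumours of 1 arm. The mean of the 8 centred genes was 0.22 ± 0.28 (SD, n = 6) in placebo, -0.30 ± 0.56 (n = 5) in lenvatinib, -0.91 ± 0.72 (n = 5) in anti-PD1 and 0.94 ± 0.86 (n = 5) in the combination. The 4 highest tumours were combination mice 4, 5, 2 and 3, at 1.91, 1.28, 1.07 and 0.85, followed by lenvatinib mouse 5 and placebo mouse 3, both at 0.67. Combination mouse 4 was among the highest 3 tumours for all 8 genes. Combination mouse 1 stood at -0.42, below the mean of all tumours for each of the 8 genes. At the other end, anti-PD1 mouse 2 stood at -2.11 and was among the lowest 3 tumours for all 8 genes.

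Markers of other cells were measured beside the receptor genes, and their part in the differences was not tested. The NK cell score (10 of 12 listed genes measured) ran from -0.05 to 0.67 in placebo, -0.62 to 0.70 in lenvatinib, -1.67 to 0.14 in anti-PD1 and -0.46 to 0.89 in the combination, and in the combination against anti-PD1 all 10 genes stood higher, 8 of them at an unadjusted p under 0.05. The macrophage score (11 of 12 measured) ran from -0.13 to 1.02, -0.91 to 0.77, -1.28 to 0.43 and -0.64 to 1.34 in the same arms. All 11 genes were higher in the combination than in anti-PD1, 9 of them at an unadjusted p under 0.05. Over all probe sets in that pair, 4.85% were called higher at that p and 48.1% stood above 0. The B cell score (11 of 12 measured) was 3.48 in combination mouse 4 and 1.54 in combination mouse 3, and at most 0.45 in the other 19 tumours. Combination mouse 4 had the highest mean of the 8 centred receptor genes. It also had the highest score of dendritic cell genes (1.13) and of naive and recirculating T cell genes (1.54). In the 5 tumours rich in skeletal muscle the mean of the 8 centred receptor genes was 1.07 (combination mouse 2), 0.14 (placebo mouse 5), 0.0083 (placebo mouse 1), -0.42 (lenvatinib mouse 4) and -2.11 (anti-PD1 mouse 2). The adipocyte score was highest in anti-PD1 mouse 2 (2.98), followed by placebo mouse 1 (2.49) and anti-PD1 mouse 1 (2.38). The hepatocyte-lineage score, for the tumour cells themselves, ran from -1.57 to 1.07 in placebo and 0.31 to 1.21 in lenvatinib. It ran from -1.50 (mouse 2) to 1.03 in anti-PD1 and from -1.26 to 0.91 (mouse 1) in the combination. Of the markers of immature thymic T cells, Rag2, Dntt and Ptcra, none had an unadjusted p under 0.05 in any comparison. No list had a defining gene at 0, since the arrays give a background signal for every probe set, and no gene of these marker lists was below the negative-control median in all tumours.

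**Figure D3:**
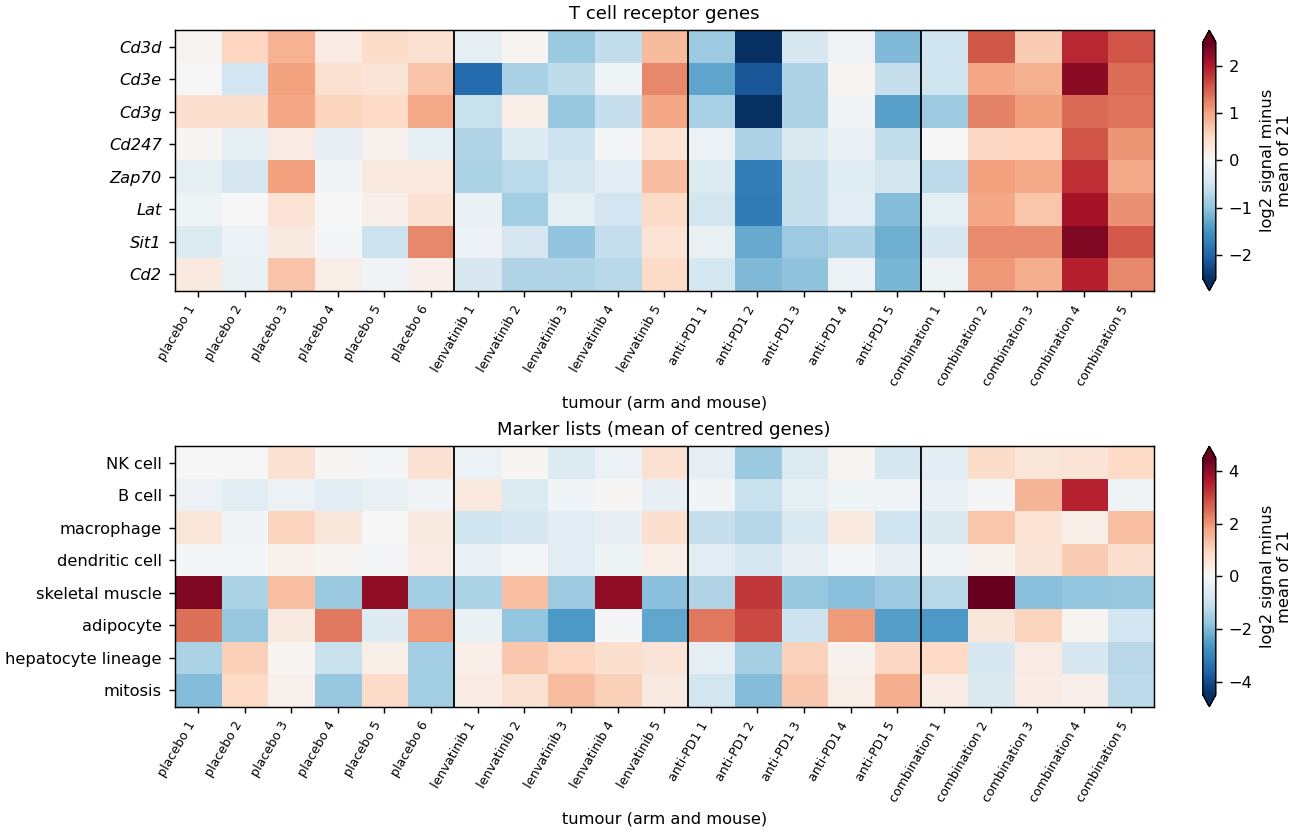
Upper panel, log2 signal of each receptor gene minus its mean over 21 tumours; lower panel, scores of 8 marker lists (mean of centred log2 signals). Columns are tumours in the order of arm and mouse, black lines separate arms, and the darkest shades also hold values beyond the ends of each scale; combination mice 2 to 5 are red and anti-PD1 mouse 2 is blue for all 8 receptor genes.

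Over all 21 tumours together the 8 genes followed each other. Over the 28 pairs of genes and 21 tumours, Pearson's r ran from 0.71 to 0.97 (median 0.86) and Spearman's rho from 0.70 to 0.97. The permutation p, adjusted over the 28 pairs, was at most 0.00093 for r and 0.00062 for rho (100000 resamples, two-sided). Tumours were shuffled across arms, so this p also counts differences between arms that the genes share. Leaving out for each pair the 2 tumours farthest from the median of its first gene left r between 0.67 and 0.95. Removing the arm means left r between 0.56 and 0.96, for which no p was computed. Within the 15 arrays with dim controls r ran from 0.77 to 0.99, and within the 6 with bright controls from -0.19 to 0.92, with a median of 0.60. Within the 6 placebo tumours r ran from -0.43 (Cd247 with Sit1) to 0.93 (Cd3g with Lat). It was 0.53 there for Cd3d with Cd3g. Over the 21 tumours the closest pair was Cd3d and Cd3g, the adjacent genes on chromosome 9, with r = 0.97. Cd3e, next to them, followed Zap70 more closely (r = 0.94) than it followed Cd3d (0.82) or Cd3g (0.84). Lat and Cd2 also stood at r = 0.94. The lowest r was that of Cd3g with Cd247, 0.71. Within the arms it was Sit1 that followed the CD3 chains least, with r = 0.56 to Cd3d and 0.58 to Cd3e after arm means were removed. The points share tumours and the composition of each tissue piece, so these values describe the set and its samples.

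**Figure D4:**
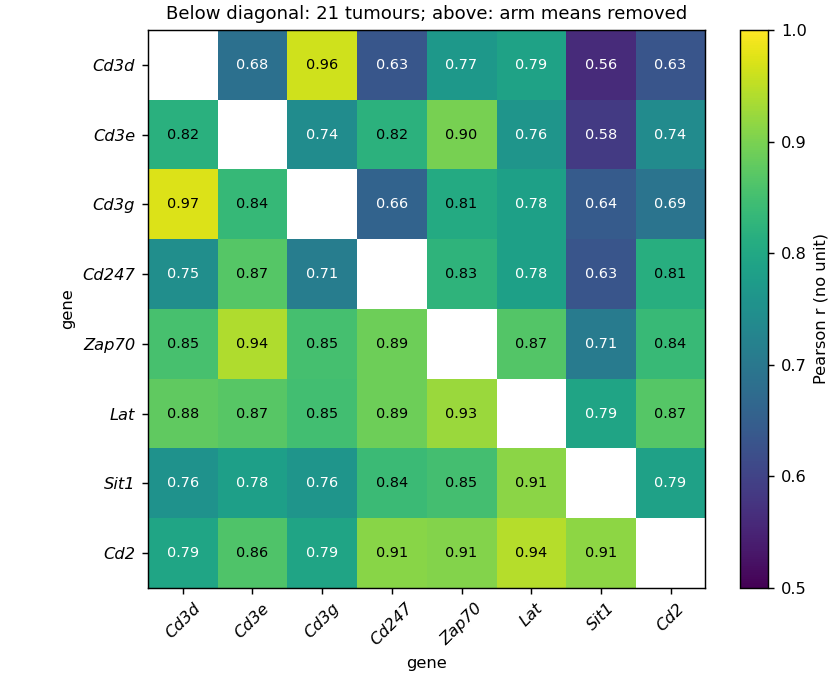
Pearson's r between the 8 genes, below the diagonal over 21 tumours and above it after each arm's mean was removed; each cell prints its r and is shaded by it. All 28 pairs lie at 0.71 or above over 21 tumours, and the pair Cd3d and Cd3g stays at 0.96 with arm means removed.

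Among all other named genes, those most like the mean of the 8 over 21 tumours were Rac2, a GTPase of blood cells (r = 0.97), Arhgdib, a regulator of such GTPases (0.96), Psd4 (0.95), Selplg, the ligand of P-selectin on leukocytes (0.95), Ctsw, a protease of cytotoxic lymphocytes (0.95), and Cd8b1, the CD8 beta chain (0.95). H2-Aa, an MHC class II chain of antigen-presenting cells, followed at 0.94, then Tnfaip8l2 at 0.94, Ms4a6b at 0.93 and Il7r, the interleukin 7 receptor, at 0.93. After the arm means were removed Arhgdib (0.95), Rac2 (0.93) and Psd4 (0.92) led, and Sh2d1a (0.90) and Rhoh (0.89) entered the first 10 in place of Cd8b1 (0.88) and Tnfaip8l2 (0.88). The list holds T cell genes together with genes that other leukocytes also express.

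Other genes of the pathway were counted from lists by role, and in each list 0 genes passed the threshold in limma in either direction, in each of the 7 comparisons. Among other surface receptors of T cells (15 of 20 genes measured; the receptor's own constant chains Trac, Trbc1, Trbc2 and Trdc, and Cd27, are not analysed here), 15 of 15 stood higher in the combination than in anti-PD1, all at an unadjusted p under 0.05, with a median of 1.58. Cd8b1 differed by 2.48 ± 0.54 (adjusted p = 0.124), Slamf6, a receptor of the SLAM family, by 2.19 ± 0.49 and Cd96, an adhesion receptor, by 1.94 ± 0.44. The same list stood below placebo under anti-PD1 in 15 of 15 genes (median -0.88, 8 at an unadjusted p under 0.05, where 2.68% of all probe sets were called lower and 49.6% stood above 0), with Cd8b1 at -1.58 ± 0.52, Slamf6 at -1.36 ± 0.47 and Cd48, the ligand of CD2, at -1.49 ± 0.54. Among kinases and phosphatases (9 measured), 9 of 9 stood higher in the combination than in anti-PD1 and 5 had an unadjusted p under 0.05. These 5 were Ptprc (CD45, which activates LCK) at 2.04 ± 0.45, Ptpn22 at 2.11 ± 0.60, Ptpn6 (SHP-1) at 1.98 ± 0.48, both phosphatases that restrain the signal, Tec at 1.54 ± 0.38 and Fyn, the kinase related to LCK, at 1.13 ± 0.35.

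Among 21 further adaptors, 20 stood higher in the combination than in anti-PD1, 14 at an unadjusted p under 0.05, with a median of 1.00. Vav1, an exchange factor that joins the LAT complex, differed by 1.99 ± 0.51, Lax1, a LAT-like restraining adaptor, by 1.56 ± 0.42, and Grb2, which binds LAT, by 1.01 ± 0.26, while Nck2 stood at -0.38. Signalling genes further downstream stood closer to 0, with a median of 0.28 over 16 genes; Camk4, a calcium-dependent kinase (1.06 ± 0.22), Prkcq, protein kinase C theta (1.60 ± 0.44), and Rasgrp1, a RAS activator (1.26 ± 0.39), were the 3 with an unadjusted p under 0.05. Of 15 genes induced by receptor signalling, 13 stood higher in the combination than in anti-PD1, 6 at an unadjusted p under 0.05 and with a median of 0.64, led by Cd69 at 2.24 ± 0.53, Tnf at 1.12 ± 0.31 and Tnfrsf4 (OX40) at 1.45 ± 0.41. Il2 (-0.11) and Il2ra (-0.21) lay below 0, and Il2 was below the negative-control median in all 21 tumours. Of 10 listed T cell transcription factors, 7 were measured (not Tcf7, Gata3 or Foxp3) and all 7 stood higher, with Ikzf1 (1.79 ± 0.56), Bcl11b (1.26 ± 0.43), Satb1 (1.44 ± 0.50) and Runx3 (0.81 ± 0.35) at an unadjusted p under 0.05. Of 5 measured genes of naive and recirculating T cells, all 5 stood higher, and 1, Il7r, was at an unadjusted p under 0.05 (2.64 ± 0.68). For the lists in the combination against anti-PD1 the background is the 4.85% of probe sets called higher and the 48.1% with a difference above 0. At an unadjusted p under 0.05 in limma, 1.01% of all probe sets were higher in the combination than in placebo. At that p, so were 2 of 15 surface receptors, 2 of 9 kinases and phosphatases and 4 of 21 adaptors. So were 2 of 16 downstream genes, 1 of 15 induced genes, 2 of 7 transcription factors and 1 of 5 naive and recirculating genes. In the combination against anti-PD1 the NK cell, macrophage and B cell marker lists also stood higher, by medians of 1.14, 1.40 and 1.60. Tyrobp is on both the NK cell and the macrophage list. The B cell score was 1.54 and 3.48 in combination mice 3 and 4, and -0.29, -0.09 and -0.15 in mice 1, 2 and 5. The part of such cells in the pathway lists was not tested.

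Pdcd1, which encodes PD-1 itself, stood at -1.12 ± 0.50 in anti-PD1 against placebo (adjusted p in limma 1.00) and at 1.37 ± 0.53 in the combination against anti-PD1 (adjusted p 0.422). Cd274, which encodes its ligand PD-L1, stood at 0.65 ± 0.39 in lenvatinib against placebo and at 0.96 ± 0.41 in the combination against anti-PD1 (adjusted p 0.721 and 0.541). Antibody binding to PD-1 is not seen by an RNA measurement, so these values do not check the treatment labels.

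**Figure D5:**
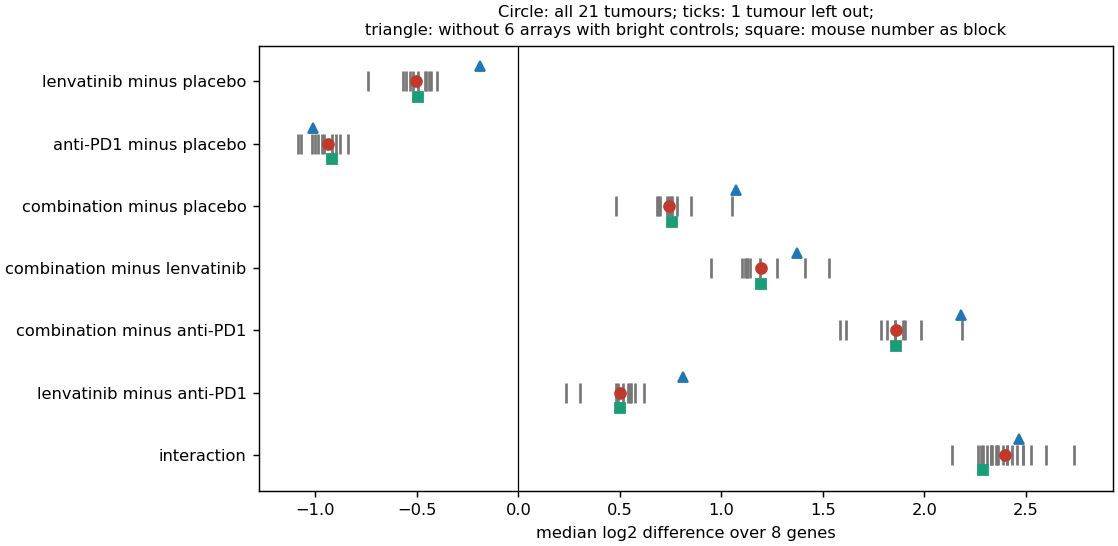
Median log2 difference over the 8 genes in each comparison: circles for all 21 tumours, ticks for fits without 1 tumour, triangles for the 15 arrays with dim controls and squares with the mouse number as a block. Every symbol stays on its side of 0 in each comparison, and the ticks of the combination against anti-PD1 run from 1.58 to 2.19.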

How the data were processed

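Clariom S mouse arrays of 21 tumours, 1 per mouse, were analysed. Per the submitters' processing notes, the authors used RMA through oligo, for which no version is stated, and the deposited values are log2 signals. RMA corrects background, quantile-normalizes arrays and summarizes probes, which takes out any shift that most genes share. Which genome build and annotation the authors used is not given in the sources used here. After 6923 control rows were left out, 22206 probe sets were tested with no filter on dim ones. Of these, 19572 had 1 gene symbol, 0 had several and 2634 are unnamed here. Arms were taken from the treatment labels, and each sample is a separate animal.

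limma 3.58.1 (R 4.3.3, lmFit and eBayes) fitted 4 arm means over 21 arrays, with 6 pairs of arms, the interaction and a moderated F test. The threshold was a Benjamini-Hochberg adjusted p under 0.05 over 22206 probe sets. On simulated data the fit was tested, while the permutation test was checked only for giving the same differences, not for its p. The genes and all lists were chosen with earlier results of these data known. The genes named are the 9 given by name, the 3 of each pathway list with the smallest p in a comparison described and any gene in a count of 5 or fewer, Pdcd1 and Cd274, and the 10 most alike by r; markers of other cells are given as scores. A gene with several probe sets was represented by the one with the highest mean. Alternatives were a 40th-percentile filter, cyclic loess, array weights, trended and robust eBayes, the mouse number as a block, the hybridization controls as a covariate, leaving out 6 arrays or combination mice 3 and 4, fitting only the 2 arms compared, an adjusted p under 0.1, an exact permutation test and leaving out each mouse. Counts at an unadjusted p under these settings were added after the data were seen.

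The mouse numbers recur in each arm. Over 30 pairs of tumours with the same number in different arms, the correlation of their deviations from the arm means over all probe sets had a median of 0.10 (-0.63 to 0.56). Of these pairs, 15 exceeded 0.1. The median was -0.040 over 135 pairs with other numbers. These values do not decide whether the numbers pair mice. The main fit did not pair them, and a fit with the number as a block is given below.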

Additional observations from a re-analysis of the deposited data

Results flagged for a closer look

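Within each arm the highest and lowest tumour of each gene were compared with the rest by Dixon's criterion at the 95% level. Of 32 groups, 3 held a tumour that stood apart, where chance gives about 1 in 20 independent groups. These groups are not independent, since the genes were read in the same 21 tumours and followed each other. The count is therefore not set against that rate. Cd3d in anti-PD1 mouse 2 was 4.02, with the next lowest tumour of the arm at 7.14. Zap70 in the same tumour was 4.89, with the next at 6.05. Cd3g in combination mouse 1 was 7.72, with the next at 9.67. The first tumour also had the highest adipocyte score (2.98) of the 21, and the array of the other had bright hybridization controls; the part of either in the values was not tested.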

How the results depend on the processing

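The median difference of the 8 genes kept its direction in every comparison under each setting fitted, the exceptions being 2 pairs taken within the 6 arrays with bright controls alone (-0.77 for the combination against placebo and -0.075 for lenvatinib against anti-PD1). Over the settings it ran from -0.74 to -0.19 for lenvatinib against placebo, -1.09 to -0.84 for anti-PD1 against placebo, 0.48 to 1.07, 0.95 to 1.53 and 1.53 to 2.19 for the combination against placebo, lenvatinib and anti-PD1, 0.23 to 0.81 for lenvatinib against anti-PD1 and 2.06 to 2.74 for the interaction. Of 1192 values of single genes under the alternatives, 1138 kept their direction and side of the threshold, 53 newly passed and 1 changed direction, Cd3g in the combination against placebo (0.20), at -0.069 without combination mice 3 and 4. With array weights, 707, 504, 1691 and 142 of all probe sets passed in the combination against lenvatinib, against anti-PD1, the interaction and the F test, of which 7, 8, 8 and 5 were members of the receptor set. Without the 6 arrays with bright controls 233 probe sets and 6 members passed in the combination against anti-PD1. Leaving out 1 mouse gave 0 to 338 probe sets and 0 to 8 members there (338 and 8 without combination mouse 1, 87 and 3 without anti-PD1 mouse 4), 0 to 320 and 0 to 8 in the interaction (320 and 8 without combination mouse 1, 81 and 4 without lenvatinib mouse 5, 7 and 1 without anti-PD1 mouse 4) and 0 to 1 probe sets in the combination against lenvatinib. The cause of these changes was not tested. With the mouse number as replicate block the medians were -0.49, -0.92, 0.76, 1.20, 1.86 and 0.50 for the pairs in the order above and 2.29 for the interaction, and 0 probe sets passed, which changed no call. Cyclic loess moved the median of all probe sets by at most 0.03. Signal over background limits Sit1 and Cd247 most, which exceeded the 95th percentile of the negative controls in 1 and 2 of 21 tumours.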
